A study of Caenorhabditis elegans with 4 samples.

Results

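The 277 peaks of the nuclear hormone receptor NHR-10 on chromosome X of Caenorhabditis elegans were examined, out of 1235 peaks in the authors' combined peak list. They were chosen by chromosome only, with no use of their scores. They were set against the 842 combined peaks on chromosomes II to V. Chromosome I, with 116 combined peaks (7.70 per Mb), was left out of that set but is counted in the values for all combined peaks. The peaks came from chromatin immunoprecipitation and sequencing (ChIP-seq), in which DNA fixed to a protein is pulled down with an antibody and mapped to the genome. All samples were hermaphrodites at L4, the last larval stage, of strain OP239, grown at 20 °C. The strain is mutant for unc119, by the allele ed3, and carries the transgene wgIs239. From it NHR-10 is made as a fusion with TY1, EGFP (a green fluorescent protein) and FLAG tags, and a working unc119 copy on the same transgene rescues the mutant background. The series held 2 ChIP samples, precipitated with an anti-GFP antibody, and 2 input samples of the same genotype and stage. Samples were assigned by their titles, since the description fields mention the antibody for the inputs only. Whole worms were used, so sites bound in different tissues were read together, and the transgene was introduced by bombardment.

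NHR-10 belongs to the large family of C. elegans nuclear hormone receptors, which bind DNA through a zinc finger domain and switch genes in response to small molecules or metabolic state. It is known above all for the response to the metabolite propionate, in which it acts together with NHR-68 to turn on an alternative breakdown route. Chromosome X has features of its own in this species. Hermaphrodites carry it in the same copy number as the autosomes, the dosage compensation complex lowers its transcription in somatic cells, and few of its genes are active in the germline. Autosomes have gene-dense centres with little recombination and arms with more of it, a division that is less marked on X.

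A peak here is a region that the authors' program PeakSeq scored as enriched, with a start, an end and a q-value, the smaller the stronger. Replicate 1 held 135 peaks on X of 525 in all, and replicate 2 held 151 of 593. Sequencing depth is unknown, since the lists carry no read counts. Positions are 1-based WormBase WS180 coordinates. As chromosome lengths of that build were not used here, the span of each chromosome was taken to run from its first base to the rightmost peak end over the 3 lists, which gave 17641213 bp for X. Each test below treats peaks as independent. Over 1 Mb bins, however, the variance of the combined counts was 2.10 times the mean on X and 3.17 to 6.07 times on II to V. Peaks were thus more uneven than under independent placement, and the intervals and p-values are likely too narrow and too small. P-values were adjusted over the 9 tests by the Benjamini-Hochberg method. The p-value of an alternative setting took the place of its main test among the 9, with no adjustment for the number of settings.

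Peaks were denser on X than on chromosomes II to V together. The combined list held 15.7 peaks per Mb on X and 12.5 per Mb on II to V, 1.25 times as many (exact binomial test, adjusted p = 0.00602, 95% exact interval of the ratio 1.09–1.44). Since counts were uneven along the chromosomes, this interval is likely too narrow and the p-value too small, and X is a single chromosome. On the single chromosomes of II to V the density was 11.7 per Mb on II, 13.4 on III, 13.3 on IV and 11.9 on V. The replicates gave the same order, with 7.65 per Mb on X against 5.44 on II to V in replicate 1 and 8.56 against 6.10 in replicate 2. Against III alone (1.175, exact binomial test, adjusted p = 0.272) or IV alone (1.183, adjusted p = 0.188) the difference did not pass. X peaks covered 1.43% of the X span, against 1.13% of the span of II to V.

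A smaller share of the peaks on X than of those on II to V lay in the middle of the chromosome. The middle 50% of the span held 146 of the 277 X peaks (52.7%, 95% Wilson interval 46.8–58.5%) and 570 of the 842 peaks on II to V (67.7%, 64.5–70.8%). The odds ratio was 0.532 (0.400–0.709, Fisher's exact test, two-sided, adjusted p = 9.00e-05). Within II to V the single chromosomes had between 62.9% on IV and 72.2% on V in the middle. In the replicates the X value was 52.6% and 51.7%, below every one of chromosomes II to V in both libraries, of which the lowest was IV with 59.5% and 64.2%. Against IV alone the combined difference did not pass (odds ratio 0.657, Fisher's exact test, adjusted p = 0.0850).

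The profile along X had a rise, a dip and a second rise. With the span cut into steps of 10%, the fourth and the fifth step held 13.4% and 14.4% of the X peaks, the sixth held 6.14% (17 peaks), and the eighth held 12.3%. On chromosomes II to V the sixth step held between 13.0% on III and 17.7% on V. Both single libraries had the dip on X, with 5.19% of the X peaks in the sixth step in replicate 1 and 5.30% in replicate 2. The lowest share among II to V in that step was 13.7% and 13.5% in these lists, in both cases on III. This step was singled out after the profile was seen, so no test is given.

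**Figure D1:**
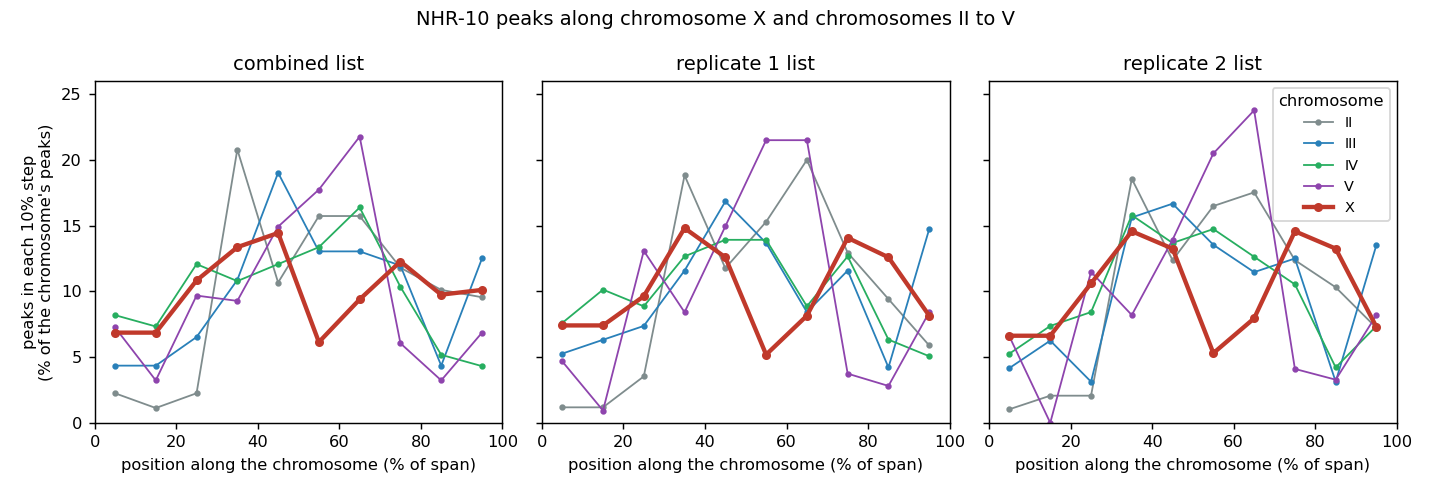
Share of each chromosome's peaks (y axis, %) in each 10% step of its span (x axis, % of span), for X (thick red line) and for II, III, IV and V (thin lines), in the combined, replicate 1 and replicate 2 lists. X dips to 6.14%, 5.19% and 5.30% in the sixth step, where the 4 autosomes hold at least 13.0%.

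The share of peaks near the chromosome ends did not pass the test. The outer 20% of the span, taken as 10% at each end, held 47 X peaks (17.0%) and 116 peaks on II to V (13.8%), with an odds ratio of 1.28 (0.863–1.87, Fisher's exact test, adjusted p = 0.272). Nor did left against right pass, and the left 50% of X held 145 peaks (52.35%, 95% exact interval 46.3–58.4%, exact binomial test, adjusted p = 0.530). On II to V the left side held 44.7%, from 37.1% on II to 50.4% on IV.

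In steps of 1 Mb, no full bin of X was empty in any of the 3 lists. The fullest was 6000001–7000000, with 29 combined peaks, 18 peaks in each replicate, 14 combined q-values below 1e-10 and 3.41% of its bases under peaks. The emptiest were 1–1000000 and 9000001–10000000, with 8 combined peaks each, and the latter had 3 peaks in each replicate. Over the 17 full bins of X the count was 15.6 ± 5.72 (mean ± SD over bins, which are neighbours and not replicates), with a median of 14.

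Relative to the mean, that spread was smaller on X than on each of II to V in these lists. The SD divided by the mean was 0.367 on X in the combined list, against 0.488 on III, 0.549 on IV, 0.664 on V and 0.721 on II. Replicate 1 gave 0.491 on X against 0.519 to 0.849 on II to V, and replicate 2 gave 0.427 against 0.579 to 0.872. This ratio also falls as counts rise, and X had more peaks. The variance divided by the mean was 2.10 on X and 3.17 to 6.07 on II to V in the combined list. In replicate 1, however, it was 1.83 on X, 1.83 on III and 1.74 on IV, so the order there did not hold on that measure. These values are a description with no test.

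Neighbouring X peaks were separated by a median of 24850.5 bp, with a lower quartile of 3612 bp and the longest at 528432 bp. The median gap on II to V was 29107 bp, with 26073 bp on IV, 26561 bp on V, 28928 bp on III and 39107 bp on II. Gaps also shorten as density rises, and X had more peaks per Mb. The differences in gaps were not tested. Gaps under 1 kb made up 12.3% of those on X and 14.9% of those on II to V, and gaps of 200 kb or more made up 8.70% (24 gaps) and 12.5%. The X gaps of 200 kb or more added up to 36.6% of the X span. On II to V such gaps took up 43.8% of III, 52.7% of IV, 53.6% of II and 57.7% of V. In replicate 1 they took up 68.33% of X and 74.85% of II to V. In replicate 2 they took up 58.99% of X and 74.56% of II to V. The longest gap on each of II to V ranged from 695782 bp on IV to 1131005 bp on II, all longer than the longest on X.

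The longest gap between neighbouring combined peaks on X was 3290461–3818892, in the left part of the chromosome, and neither replicate had a peak in it. The next such gap was 8836209–9213818 (377610 bp), which lies at 50.1% to 52.2% of the span, in the step where the profile dipped, and it was also empty in both replicates. Gaps of 333035 bp at 1909761–2242795 and 329414 bp at 2365433–2694846 were empty in both replicates as well. The fourth longest gap, 14169998–14502010 (332013 bp), held 1 peak in replicate 2 and none in replicate 1. Stretches before the first and after the last peak are not counted among the gaps; the first X peak of any list started at 409911.

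**Figure D2:**
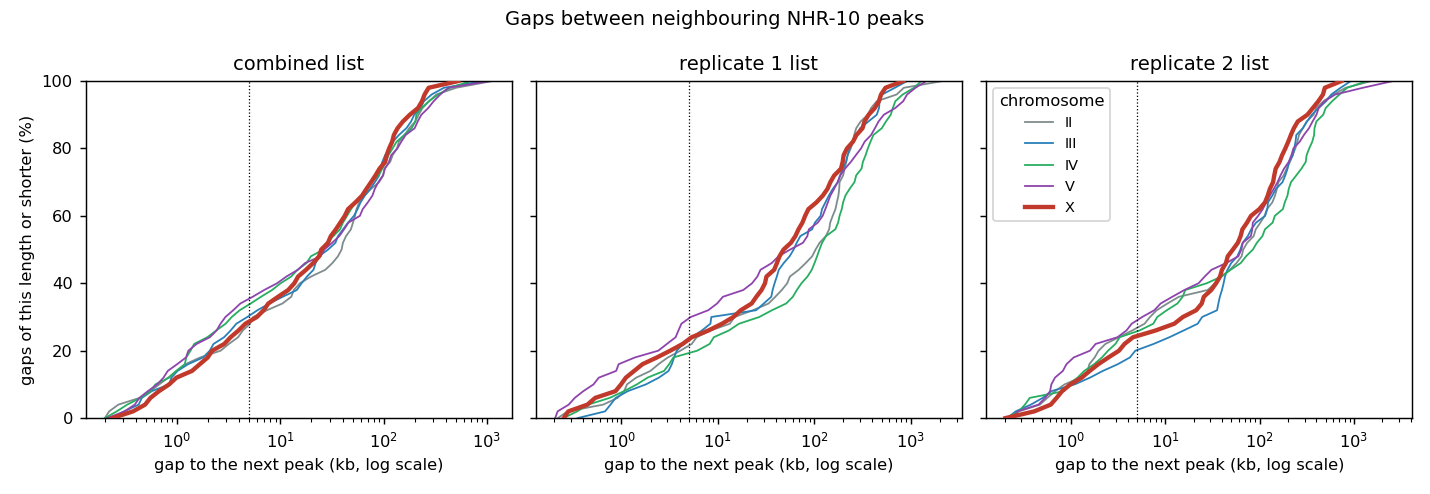
Cumulative share of gaps (y axis, %) by the gap between the end of a peak and the start of the next (x axis, kb, log scale), for X (thick red line) and II, III, IV and V (thin lines) in the 3 lists. The dotted line marks 5 kb; the X curve ends at the left of the autosome curves, its longest combined gap being 528432 bp.

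Close neighbours were frequent on X as elsewhere. Of the X peaks, 130 (46.9%, 95% Wilson interval 41.1–52.8%) had another peak less than 5000 bp away, against 439 (52.1%, 48.8–55.5%) on II to V, and 49.6% of all combined peaks. The odds ratio of 0.812 (0.613–1.08) did not pass Fisher's exact test (adjusted p = 0.272). It moved to 0.671 (0.503–0.892, Fisher's exact test, adjusted p = 0.0163) when the distance was set to 5% of each chromosome's own mean spacing. As X peaks were denser, that distance was shorter on X (3184 bp) than on II to V (3740 to 4278 bp), which makes a close neighbour harder to reach on X. At a fixed distance of 2000 bp the odds ratio was 0.752 (Fisher's exact test, adjusted p = 0.135). At a fixed distance of 10000 bp it was 0.997 (58.8% against 58.9%, Fisher's exact test, adjusted p = 1), and with peaks under 1000 bp apart merged first it was 0.912 (Fisher's exact test, adjusted p = 0.661). By the scaled measure 39.4% of X peaks and 49.2% of the peaks on II to V had a close neighbour. The lower share was also present among peaks found in both replicates, a set chosen after the values were seen, with 52 of 110 on X (47.3%) against 170 of 272 on II to V (62.5%, odds ratio 0.539, 0.335–0.863, Fisher's exact test, adjusted p = 0.0249).

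Joining X peaks less than 5000 bp apart left 197 groups, of which 147 were single peaks, 34 pairs, 8 triples, 4 groups of 4 and 4 groups of 5 or more. Thus 25.4% of X groups held more than 1 peak, against 29.5% on II to V, where IV had 34.4% and II had 24.0%. The 8 groups of 4 or more held 38 of the 277 X peaks. On II to V, 12 groups of 4 and 11 groups of 5 or more held 104 of 842 peaks, a similar share. Of the 38 X peaks, 17 were found in both replicates, 6 in 1 replicate and 15 in neither. Over all X peaks, 39.7% were in both replicates and 43.0% in neither. In 7 of the 8 X groups the best-ranked peak was also the widest. By the middle of the group, 4 of the 8 lay in the middle 50% of X.

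The fullest group, at 13348213–13360056, was also the one best recovered in the single libraries. Its 7 peaks covered 64.3% of its 11844 bp, with gaps of 356 to 1599 bp, and 6 of the 7 were found in both replicates. The 6 had combined q-values from 7.00e-27 to 1.08e-14 and combined ranks from 89 to 247. In replicate 1 the q-values of their counterparts ran from 7.19e-12 to 2.99e-07, and in replicate 2 from 1.57e-13 to 1.84e-06. None of the 6 was among the 50 best combined peaks. The seventh, 13359569–13360056, was the narrowest at 488 bp and was in neither replicate.

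A strong peak with weaker peaks on both sides was seen at 6736103–6750597 and 14783317–14793369. In the first, 6741044–6744903 had a combined q-value of 1.33e-74, with 1.23e-30 in replicate 1 and 1.56e-37 in replicate 2. It was flanked by 6736103–6738125 (q = 2.06e-20) and 6748937–6750597 (q = 1.19e-48), both found in both replicates. The 2 weaker peaks of that group, with q-values of 9.21e-07 and 7.31e-06, were in neither replicate. In the second, 14789843–14791513 stood at q = 1.72e-49 (4.08e-19 in replicate 1 and 7.31e-26 in replicate 2), beside peaks of q = 2.08e-10 and 3.25e-06 found in both replicates and 1 of q = 9.57e-06 found in neither.

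Other groups had only 1 peak found in both replicates. At 11471775–11485724, of 5 peaks only 11481019–11483257 (q = 3.15e-25) was in both replicates, and 3 were in neither. At 15700174–15709949, of 5 peaks only 15709376–15709949 (q = 1.14e-07) was in both, while the best-ranked peak, 15707122–15708052 (q = 4.75e-11), was in replicate 2 alone. At 8014395–8027189, of 4 peaks 8018505–8020543 (q = 2.38e-13) was in both.

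The remaining groups also held peaks that were not in both replicates. At 4138765–4148316, 2 of 4 peaks were in both replicates, 4144514–4145743 (q = 3.91e-18) and 4147443–4148316 (q = 5.06e-11). The shortest group, 8748446–8752876, spanned 4431 bp with 4 peaks of 315 to 587 bp. None of these 4 was in both replicates, 2 were in replicate 2 alone, and its best combined q-value was 2.38e-06.

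**Figure D3:**
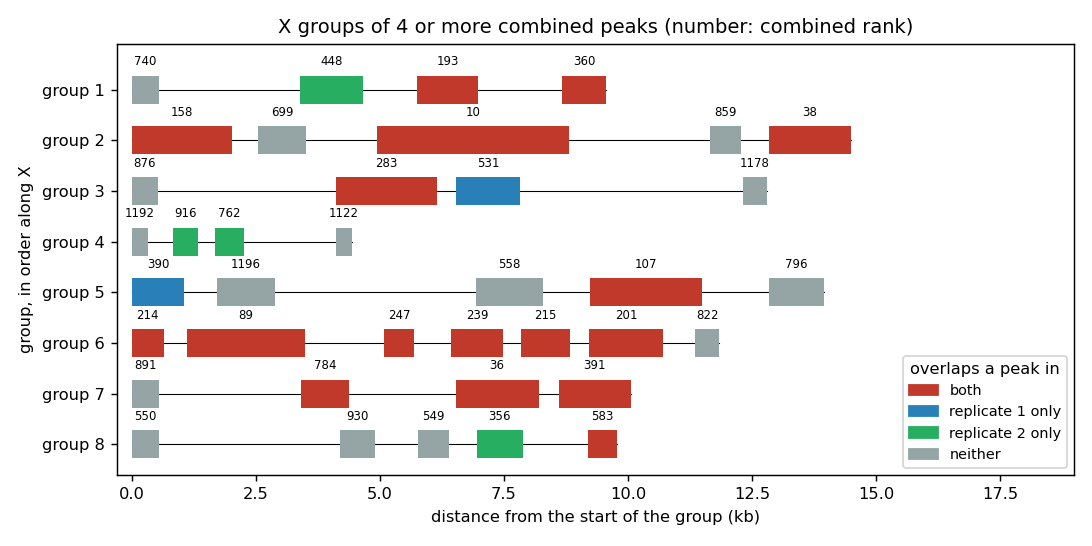
The 8 groups of 4 or more combined peaks on X, in order along the chromosome (y axis), with each peak drawn to scale by its distance from the start of its group (x axis, kb). Colours give the replicates in which a peak was found and the number above it its combined rank; the group with 7 peaks is group 6, where 6 peaks are in both replicates.

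Widths on X were close to those on II to V. The median X peak was 733 bp wide (quartiles 533 and 1049 bp), against 707 bp (482 and 1096 bp) on II to V. Peaks of at least 1000 bp made up 77 of the X peaks (27.8%) and 237 of those on II to V (28.1%), against 28.2% of all combined peaks, with an odds ratio of 0.983 (0.716–1.34, Fisher's exact test, adjusted p = 0.939). Peaks under 500 bp made up 21.3% on X and 27.4% on II to V. In the replicates the X median was 706 bp and 714 bp, against 653.5 bp and 699.5 bp on II to V.

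The widest X peak was 6251957–6257172, at 5216 bp. Replicate 1 had split it into 3 peaks, the one of largest overlap spanning 3088 bp (q = 5.04e-28), and replicate 2 had 1 peak of 2849 bp within it (q = 9.94e-28). Next came 6741044–6744903 (3860 bp), 15273693–15277322 (3630 bp), 8472953–8476449 (3497 bp) and 3114670–3117704 (3035 bp). The 3630 bp peak had narrower counterparts in both single libraries. Its combined q-value was 1.21e-29. Replicate 1 had 1 peak of 483 bp there (q = 5.91e-06). Replicate 2 had 3 peaks there, the one of largest overlap 1155 bp wide (q = 1.55e-06).

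At the other end, the narrowest X peaks were 6408464–6408495 (32 bp), 2937001–2937180 (180 bp) and 8623851–8624046 (196 bp). All 3 had combined ranks of 1070 or worse and were in neither replicate. Of the 59 X peaks under 500 bp, 51 were in neither replicate and 1 was in both. Of the 18 X peaks of 2000 bp or more, 17 were in both. Peaks in both replicates were also the wider ones on II to V. There the median width was 1152 bp for peaks in both replicates and 533 bp for peaks in neither. On X these medians were 1064 bp and 542 bp. Across the 277 X peaks, Spearman's rho between width and −log10 q was 0.74 (0.69 on II to V). Both values come from the same enriched region, so this is a description only.

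**Figure D4:**
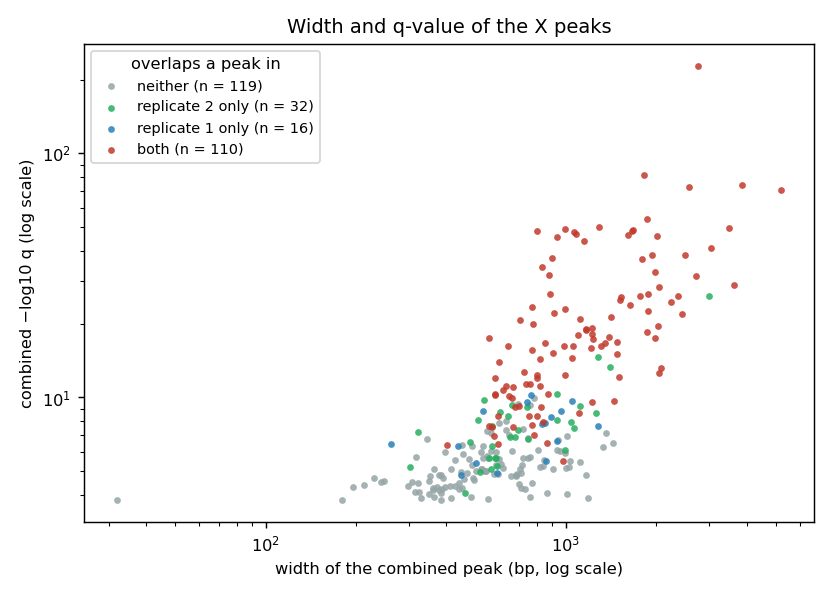
Combined −log10 q (y axis, log scale) against width in bp (x axis, log scale) for the 277 X peaks, coloured by the replicates in which each was found. Of the 18 peaks of 2000 bp or more, 17 were found in both replicates, while 51 of the 59 under 500 bp were found in neither. On II to V (not drawn) the median width was 1152 bp for peaks in both and 533 bp for peaks in neither.

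The single libraries recovered X peaks at a rate that did not pass the test against II to V. Of the 277 X peaks, 110 (39.7%, Wilson 95% limits 34.1–45.6%) were found in both replicates, by an overlap of 1 bp or more, against 272 (32.3%, 29.2–35.5%) on II to V and 32.6% of all combined peaks. The odds ratio was 1.38 (1.03–1.84, Fisher's exact test, adjusted p = 0.0850). A further 16 X peaks were found in replicate 1 only and 32 in replicate 2 only. The remaining 119 (43.0%, 37.3–48.8%) were in neither, against 399 (47.4%) on II to V and 49.1% of all combined peaks, with an odds ratio of 0.836 (0.630–1.11, Fisher's exact test, adjusted p = 0.272).

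Whether this comparison passed depended on how a match was defined, though the odds ratio itself stayed between 1.38 and 1.55. With overlap of at least 50% of both peaks, 29.2% of X peaks and 21.9% of those on II to V were in both (odds ratio 1.48, Fisher's exact test, adjusted p = 0.0433). With midpoints within 200 bp the shares were 30.0% and 21.6% (1.55, Fisher's exact test, adjusted p = 0.0167). The combined list was also split into 5 groups by rank, since stronger peaks were recovered more often. Within these rank groups the odds ratio stood at 1.20 (0.741–1.93, exact Cochran-Mantel-Haenszel test, adjusted p = 0.530). In the first rank group 71 of 73 X peaks (97.3%) and 152 of 153 peaks on II to V (99.3%) were in both. In the second the shares were 58.3% and 51.7%, in the third 18.2% and 14.5%, and in the last no peak of either set was in both. Against IV alone the difference passed (1.80, Fisher's exact test, adjusted p = 0.00768), IV having the lowest share of II to V (26.7%). Chromosome I, outside that set, had 17.2% of its peaks in both and 75.9% in neither.

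**Figure D5:**
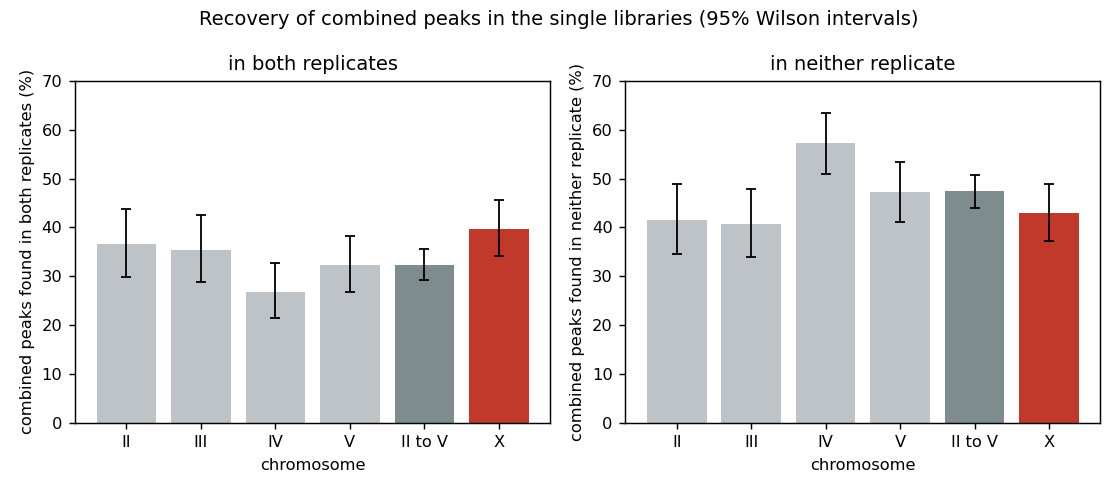
Share of combined peaks (y axis, %) found in both replicates (left) and in neither (right), for chromosomes II, III, IV and V, their sum, and X (x axis). Bars start at 0 and error bars are 95% Wilson intervals; X stands at 39.7% and 43.0%, with intervals that overlap those of II, III and V.

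The 2 X peaks of the first rank group that were not in both replicates, named after their values were seen, were 6518523–6521524 and 8819781–8821059. The former was 3002 bp wide with a combined q-value of 7.93e-27, yet its only counterpart was a 553 bp peak in replicate 2 (q = 2.66e-05). The latter had a combined q-value of 2.42e-15 and a replicate 2 counterpart of 996 bp (q = 2.08e-06). The best-ranked X peaks in neither replicate were 11030916–11031696 (q = 1.11e-10), 11406682–11407375 (q = 4.37e-10), 1092879–1093640 (q = 5.06e-10), 2697941–2698572 (q = 9.26e-09) and 7990049–7990645 (q = 1.38e-08). The worst-ranked X peaks that were still in both were 14786719–14787694 (rank 784), 7823014–7823415 (rank 654) and 3035920–3036513 (rank 646).

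Set directly against each other, the 2 libraries shared most of their X peaks. Of the 135 replicate 1 peaks on X, 116 (85.9%, 95% Wilson interval 79.1–90.8%) overlapped a replicate 2 peak, against 77.6% (73.1–81.6%) on II to V. Of the 151 replicate 2 peaks on X, 112 (74.2%, 66.7–80.5%) overlapped a replicate 1 peak, against 70.5% (65.9–74.7%). These differences were not tested. For the 105 X peaks matched singly in both directions, the start differed by a median of 93 bp, the end by 84 bp and the midpoint by 71 bp, and on II to V by 93.5, 90 and 71 bp. Spearman's rho between their q-values was 0.81 on X (105 pairs) and 0.73 on II to V (270 pairs), where each pair passed the authors' threshold in both libraries. Of the 105 pairs on X, 60 (57.1%) had the smaller q-value in replicate 2, against 164 of the 270 pairs on II to V (60.7%).

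Only 6 replicate peaks on X overlapped no combined peak. In replicate 1 these were 12393802–12394239 (q = 9.34e-05) and 13165111–13165939 (q = 1.39e-05). In replicate 2 they were 4711896–4712330 (q = 2.85e-06), 5119049–5119637 (q = 3.68e-06), 12503987–12504362 (q = 9.71e-05) and 14214505–14214805 (q = 7.69e-05). None of the 6 overlapped a peak of the other replicate, and the nearest combined peak was 2654 to 81690 bp away.

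The share of peaks with small q-values was compared next, and its call depended on the limit and the library. On X 94 peaks (33.9%, 95% Wilson interval 28.6–39.7%) had a q-value below 1e-10, against 249 (29.6%, 26.6–32.7%) on II to V and 30.1% of all combined peaks (odds ratio 1.22, 0.904–1.65, Fisher's exact test, adjusted p = 0.272). At a limit of 1e-20 the shares were 17.0% and 10.9% (1.67, 1.11–2.47, Fisher's exact test, adjusted p = 0.0342). In replicate 2 alone the limit of 1e-10 gave 35.1% on X and 22.2% on II to V (1.89, 1.23–2.90, Fisher's exact test, adjusted p = 0.00693). In replicate 1 alone it gave 26.7% and 21.6% (1.32, Fisher's exact test, adjusted p = 0.300). X held 35 of the best 100 combined peaks (95% Wilson interval 26.4–44.7%), against 22.4% of the whole combined list. In replicate 1 it held 28 of the best 100 (20.1–37.5%), close to its 25.7% of that whole list, and in replicate 2 it held 37 of the best 100 (28.2–46.8%), against 25.5%.

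The 15 best-scored X peaks all lay within combined rank 42, and all were found in both replicates. The first stood apart from the rest. At 16929210–16931957 it had a q-value of 2.31e-229, and its counterparts were 2631 bp wide in replicate 1 (q = 4.40e-119) and 2489 bp wide in replicate 2 (q = 5.10e-109). It had no neighbour within 26972 bp. The second, 1503400–1505226, near the left end, had 1.05e-48 in replicate 1 and 6.22e-38 in replicate 2. The fourth, 17419441–17422002, at 98.8% of the span, had 2.85e-42 and 1.36e-40.

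The order of the others differed between the libraries. The peak 4208208–4210066 (combined q = 2.36e-54) had 3.58e-27 in replicate 1 and 3.15e-37 in replicate 2, where it ranked 11 in the whole list. The peak 11093659–11094952 (q = 1.59e-50) had 1.22e-31 in replicate 1, rank 13, and 8.80e-24 in replicate 2, rank 35. The peak 8472953–8476449 (q = 4.44e-50) was split into 2 peaks in replicate 1, the one of largest overlap at 3.02e-17, and was 1 peak of 2.29e-29 in replicate 2. These libraries thus gave opposite orders for the peaks at 4208208 and 11093659.

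Of the best X peaks, 2 were under 1000 bp wide. The narrowest was 16056040–16056842 at 803 bp, with a combined q-value of 1.29e-48 (5.03e-26 in replicate 1 and 2.87e-22 in replicate 2). The peak 6296084–6297080 was 997 bp wide, with q-values of 1.57e-49, 3.59e-28 and 4.31e-25 in the combined, replicate 1 and replicate 2 lists. The 2 libraries placed its edges close together, at 6296114–6297007 and 6296093–6296984.

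For the remaining 3, replicate 1 gave the smaller q-value each time. For 14525351–14526418 (combined q = 2.22e-48) the replicates gave 3.33e-24 and 2.76e-22, and for 8035904–8036985 (1.44e-47) they gave 3.45e-25 and 8.64e-24. For 2996049–2997659 (3.34e-47) they gave 5.57e-28 and 1.82e-20. Of the 15 peaks, 7 lay in the middle 50% of X and 4 in the outer 20%, and 6 had a neighbour less than 5000 bp away. They were spread from 8.53% to 98.8% of the span.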

How the data were processed

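Groups and replicate numbers came from the sample titles. The authors deposited 3 peak lists, 1 per ChIP replicate and 1 named combined, called with PeakSeq on WormBase WS180, per the file headers and the files' source column. The aligner, PeakSeq's version and control, any filters, and whether the combined list came from pooled reads were not given in the sources used here. The q-value of each peak, an authors' deposited value, was used only to rank and describe peaks within a list. Start and end columns are deposited positions. Values of the input samples were not analysed here. The labels do not say whether replicates were separate cultures.

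The members and lists were chosen with earlier results of these data known. Gaps count the bases between peaks. Peaks were shared when they overlapped by 1 bp; values of a counterpart are those of the replicate peak of largest overlap. Ranks cover the whole list. Regions were named by fixed rules (15 best, 5 widest, 3 narrowest, 5 longest gaps, groups of 4 or more, extremes of recovery). Tests were Fisher's exact, exact binomial and, within rank groups, exact Cochran-Mantel-Haenszel tests. Computation used Python 3.11.15, numpy 2.4.6, scipy 1.17.1, statsmodels 0.14.6 and matplotlib 3.10.9. Fisher's exact and the exact binomial test were run on simulated independent counts, which cannot show how they behave for unevenly placed peaks. The Cochran-Mantel-Haenszel test was not checked in this way. The gene table (WBcel235) is of another assembly, so peaks were assigned to no gene and no sequence was read.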

Additional observations from a re-analysis of the deposited data

How the results depend on the processing

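Of 94 recomputed results, 73 kept their direction and their side of the threshold. The higher density on X passed in every setting run except against III alone (1.175) and IV alone (1.183). The ratio ranged from 1.175 to 1.73, the latter against protein-coding genes in place of length. The lower share in the middle of X passed in every setting run except against IV alone (0.657), within 0.430 to 0.657. The share with a close neighbour did not pass in the full list (0.812) and passed with the scaled distance (0.671) and among peaks in both replicates (0.539). It did not pass at fixed distances of 2000 bp (0.752) or 10000 bp (0.997) or after a 1000 bp merge (0.912), and against II alone its direction turned (1.08). The share of wide peaks, which passed nowhere, turned with limits of 500 bp (1.40) and 2000 bp (1.04) and against IV alone (1.33). The share in both replicates passed with I to V as the comparison (1.50), with 50% reciprocal overlap (1.48), with midpoints (1.55) and against IV alone (1.80). It passed in no other setting run, among them rank groups (1.20), groups within 5000 bp counted once (1.25) and II alone (1.145). The share in neither passed with reciprocal overlap (0.687) and against IV alone (0.561), and turned against II (1.06) and III (1.09). Within rank groups the odds ratio for neither was 0.994 and did not pass. With groups within 5000 bp counted once it was 0.832 and did not pass. The share of small q-values passed at 1e-20 (1.67) and against IV alone (1.87), and turned against III (0.987); over single replicates it ran from 1.32 to 1.89 and passed in replicate 2 only. The cause of these changes was not tested. Comparisons with single autosomes, with gene numbers and with peaks in both replicates were chosen after seeing the data. Left against right and the outer 20% kept their side in every setting run. Over single replicates the density ratio was 1.40 to 1.41 and the odds ratio for the middle 0.480 to 0.522. No paired analysis was possible because the comparisons are between chromosomes within a list, and the inputs were not analysed here. The lists hold no read counts, so the limit set by depth is unknown.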
